A study of Mus musculus with 4 samples.

Results

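The genes examined were 10 interferon-inducible GTPases of the mouse, out of 34745 genes in the deposited table. They were taken by name as members of 2 protein families, with earlier results of these data known, and other genes of the families are described apart: 5 encode guanylate-binding proteins (GBPs: Gbp2, Gbp3, Gbp5, Gbp7 and Gbp9) and 5 encode immunity-related GTPases (IRGs: Irgm1, Irgm2, Igtp, Iigp1 and Tgtp2). RNA sequencing had been performed on cultured primary macrophages of 2 genotypes to find genes whose expression depended on G3BP1, the scaffold protein of stress granules. The libraries labelled WT, called controls here, were from G3bp1f/f macrophages, which carried a floxed G3bp1 gene, and those labelled KO, called knockouts here, were from G3bp1mac-/- macrophages, which carried the same floxed allele and a Cre recombinase driven by Lyz2. Lyz2 is active in monocytes, macrophages and granulocytes, so that the deletion need not be limited to macrophages in the mouse. The paper states that bone marrow-derived macrophages of the 2 genotypes were used for its transcriptome comparison. Cells of both genotypes were cultured in DMEM with serum, and neither the labels nor the sample names give an interferon or any other stimulus. Each genotype had 2 libraries, numbered 1 and 2. The labels do not say whether these came from separate mice or cultures, so p-values measure only the spread between these samples, which may be technical.

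GBPs and IRGs are large cytoplasmic GTPases by which a cell attacks bacteria and parasites that live inside it. Interferon binds its receptor, JAK kinases pass the signal on, and interferon regulatory factors such as IRF1 take part in switching on the GTPase genes. The effector GTPases then gather on the vacuole that encloses the microbe and break it open, and GBPs also help caspase-11 to sense bacterial lipopolysaccharide. The regulatory IRGs (Irgm1, Irgm2 and Igtp) sit on the cell's own membranes and keep the effectors (Iigp1, Tgtp2) in the inactive state.

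The genes lie in clusters. On the GRCm38 mouse genome Gbp5 (chromosome 3, 142493978 to 142522344), Gbp7 (142530342 to 142550149), Gbp3 (142560026 to 142573209) and Gbp2 (142620602 to 142638008) stand in a row on the plus strand of chromosome 3, and Gbp9 (105077630 to 105139539, minus strand) belongs to a cluster on chromosome 5. Irgm1 (48861968 to 48871683) and Tgtp2 (49057194 to 49064206) lie on the minus strand of chromosome 11, and Igtp (58199556 to 58207591) and Irgm2 (58199618 to 58222779) on its plus strand. These 4 IRG genes share chromosome 11 with G3bp1 (55469685 to 55504838), the gene targeted in knockouts, at distances of 6.60, 6.41, 2.69 and 2.69 Mb. All are annotated as protein-coding. The table places the start of Irgm2 inside Igtp on the same strand, and the annotated exons of the pair share 162 bases, which are 8.0% of the exon bases of Igtp and 4.4% of those of Irgm2. Reads in that stretch could be counted for either gene.

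The promoters of these genes were read to see what the members share in sequence. RefSeq windows of GRCm38.p6, from 250 bases before to 50 bases after each annotated start, were at hand for 8 of the 10 members, all but Gbp9 and Iigp1. An interferon-stimulated response element (ISRE), the site bound by interferon regulatory factors, was searched as GAAA, any 2 bases, GAAA. A gamma-activated site (GAS), an element of promoters that respond to interferon gamma, was searched as TTCNNNGAA. Both were searched on both strands, and overlapping matches were kept. All 8 members with a window had at least 1 ISRE match, against 3.99% of the 27025 genes with a window, and 5 of the 8 (Gbp5, Gbp7, Irgm2, Igtp and Tgtp2) also had a GAS match, against 9.55%. Gbp3 had 2 windows, and the second held no match. Another search was added after the windows had been read. The letters GGGA, any 2 bases, TTCC, a form of the NF-kB site, stood in a window of 1.63% of these genes and, among the members, in those of Gbp5 and Gbp2.

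The stretches of 7 genes follow, each on the strand of its gene and upstream of the start that RefSeq gives, without bases of annotated exons, so that the arrangement of the matches can be compared. Capitals mark ISRE, GAS and NF-kB matches. The first 3 belong to GBP genes of chromosome 3 (chr3:142496764-142496899, chr3:142530166-142530335 and chr3:142559874-142560025, plus strand), the next 2 to the regulatory IRG genes Igtp and Irgm2 (chr11:58199386-58199555 and chr11:58214807-58214976, plus strand), and the last 2 to Tgtp2 and to its near-identical neighbour Tgtp1 (chr11:49064213-49064382 and chr11:48992259-48992416, minus strand).
Gbp5: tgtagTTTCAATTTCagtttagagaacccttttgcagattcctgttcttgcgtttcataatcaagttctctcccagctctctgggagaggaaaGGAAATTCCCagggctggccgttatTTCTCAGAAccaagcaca
Gbp7: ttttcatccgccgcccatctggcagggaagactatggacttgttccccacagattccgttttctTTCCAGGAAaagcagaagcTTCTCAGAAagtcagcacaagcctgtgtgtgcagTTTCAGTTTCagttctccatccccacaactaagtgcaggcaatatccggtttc
Gbp3: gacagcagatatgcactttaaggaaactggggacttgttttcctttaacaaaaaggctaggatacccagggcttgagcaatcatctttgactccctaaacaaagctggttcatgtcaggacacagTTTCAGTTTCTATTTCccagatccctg
Igtp: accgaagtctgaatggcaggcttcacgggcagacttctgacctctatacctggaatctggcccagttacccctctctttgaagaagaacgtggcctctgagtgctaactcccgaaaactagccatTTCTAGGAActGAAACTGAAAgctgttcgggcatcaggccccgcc
Irgm2: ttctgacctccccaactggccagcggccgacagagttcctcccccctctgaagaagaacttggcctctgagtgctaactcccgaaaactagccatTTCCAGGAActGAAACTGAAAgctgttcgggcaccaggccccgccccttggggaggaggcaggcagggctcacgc
Tgtp2: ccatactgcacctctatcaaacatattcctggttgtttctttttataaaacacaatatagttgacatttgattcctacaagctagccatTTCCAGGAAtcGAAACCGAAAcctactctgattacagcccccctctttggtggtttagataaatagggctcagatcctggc
Tgtp1: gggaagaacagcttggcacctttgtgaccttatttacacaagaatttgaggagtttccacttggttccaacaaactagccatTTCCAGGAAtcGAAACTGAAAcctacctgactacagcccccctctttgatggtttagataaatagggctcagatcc

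In Igtp, Irgm2, Tgtp2 and Tgtp1 the GAS match was followed after 2 bases by the ISRE match. This arrangement was noticed after the windows had been read. It occurred in 5 of the 32851 windows (0.015%), and the remaining one belonged to Gm12185, another gene of the IRG family. The annotated start of Gm12185 (48992226, minus strand) lies inside the span of Tgtp1, so its window may hold the same site as that of Tgtp1. Counted from the annotated start to the first base of the match, the ISRE lay at -34 in Igtp, -64 in Irgm2, -70 in Tgtp2 and -77 in Tgtp1. Igtp and Irgm2 shared an unbroken run of 55 bases in the 250 bases before their starts, and Irgm2 and Tgtp2 a run of 17, where other pairs of members shared between 7 and 13. The GBP promoters differed from these and from each other. Gbp5 had its ISRE at -165, its NF-kB match at -77 and GAS matches at -245 and -52, Gbp7 had GAS matches at -106 and -87 and its ISRE at -53, and Gbp3 had 2 overlapping ISRE matches at -45 and -39 with no GAS match. Gbp2 and Irgm1, whose stretches overlap annotated exons and are not shown, had ISRE matches at -59 and at -30 and -24. The RefSeq starts need not be those of the deposited table, and the starts of Gbp5 and Irgm2, for example, lie inside the gene spans given above. A match is a description of the letters and was not tested as a site of binding.

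**Figure D1:**
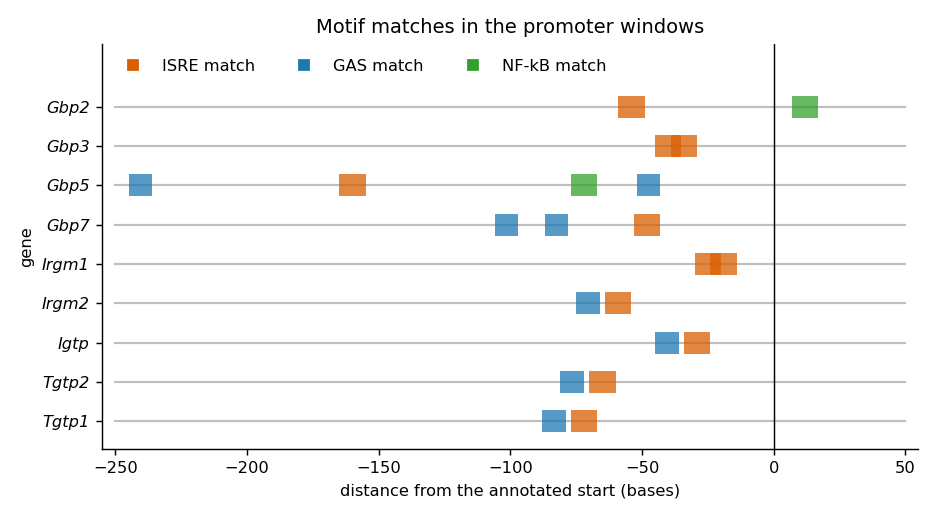
Map of motif matches in the promoter windows of 8 members and Tgtp1, with the distance from the annotated start in bases on the horizontal axis, 1 gene a row and coloured boxes for ISRE, GAS and NF-kB matches drawn to scale. All 9 rows hold an ISRE box, and in Igtp, Irgm2, Tgtp2 and Tgtp1 a GAS box stands directly before it.

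The libraries held between 16724241 and 19747909 counts, and 12418 genes had enough counts to be tested. Levels are given as CPM, the count scaled to a common TMM-corrected library total, and 0 counts leave room for at most 0.152 to 0.188 CPM by counting error alone. The targeted gene G3bp1 had 1691 and 2875 counts in controls and 1307 and 2296 in the libraries labelled KO (log2 fold change -0.61, SE 0.40, edgeR quasi-likelihood adjusted p 0.904). That value was -0.19 and -0.28 without the second control or the first knockout library, and -0.95 and -1.03 without the first control or the second knockout library. Counts over the whole gene do not resolve the lost exons, so this gene did not check the labels. Summed markers of macrophages were between 21280 and 26670 CPM with every marker detected. Those of T and NK cells (2.36 to 4.19 CPM), which could supply interferon, and of dendritic cells (4.50 to 7.78 CPM) were low in all libraries. Stromal markers (8 of 8 detected) summed to 78.6 and 92.1 CPM in controls and 345 and 322 CPM in knockouts. Neutrophil markers (6 of 8 detected, Elane and Mpo at 0) summed to 22.1 and 21.2 CPM in controls and 7.72 and 11.3 CPM in knockouts. B cell markers (7 of 7) summed to 22.1 and 23.0 CPM against 12.0 and 11.4 CPM, and mast cell and basophil markers (5 of 6, Mcpt8 at 0) to 32.9 and 34.0 CPM against 17.6 and 21.02 CPM. Erythroid markers (6 of 7 detected) summed to 12.1 and 8.40 CPM in controls and 2.04 and 2.995 CPM in knockouts. The part of these cells in the results was not tested, and in bulk samples fewer cells of a type and less RNA per cell cannot be told apart.

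The first comparison asked whether the GTPase genes differed between knockout and control macrophages. All 9 members that passed the filter had a lower mean in knockouts, with log2 fold changes from -0.0053 for Gbp9 to -1.30 for Gbp5 and a median of -0.73, beside a median of 0.041 for all tested genes together. Without the second control library the median of the members was 0.55 and 7 of the 9 were higher in knockouts. That fit, like those without this library given below for single genes, leaves number 2 in knockouts alone. It therefore mixes genotype with library number. With the replicate number as a block the median was -0.48. In the main fit, with genotype alone in the design, none was called. With limits of 0.05 on the adjusted p and 2-fold on the change, edgeR's quasi-likelihood test with Benjamini-Hochberg adjustment called 0 of the 9 members and 0 of the 12418 genes (0%). The smallest adjusted p of a member was 0.902, for Irgm1. The DESeq2 Wald test called 181 of all tested genes (1.46%) and the edgeR exact test 174 (1.40%), with 0 of the 9 members among either. With the replicate block the quasi-likelihood test called 664 genes, 1 of them a member, Gbp5 (log2 fold change -1.15, adjusted p 0.00102). The labels do not say what the number marks, and 2 pairs are too few to establish a pairing. In the main fit, at an unadjusted p under 0.05, 0 of the 9 members were lower in knockouts, against 1.99% of all tested genes. The groups overlapped in every member: both knockout libraries lay below both control libraries for 0 of 9 members and for 16.9% of all tested genes. In several members the libraries of one genotype lay far apart, as the values of each gene show.

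**Figure D2:**
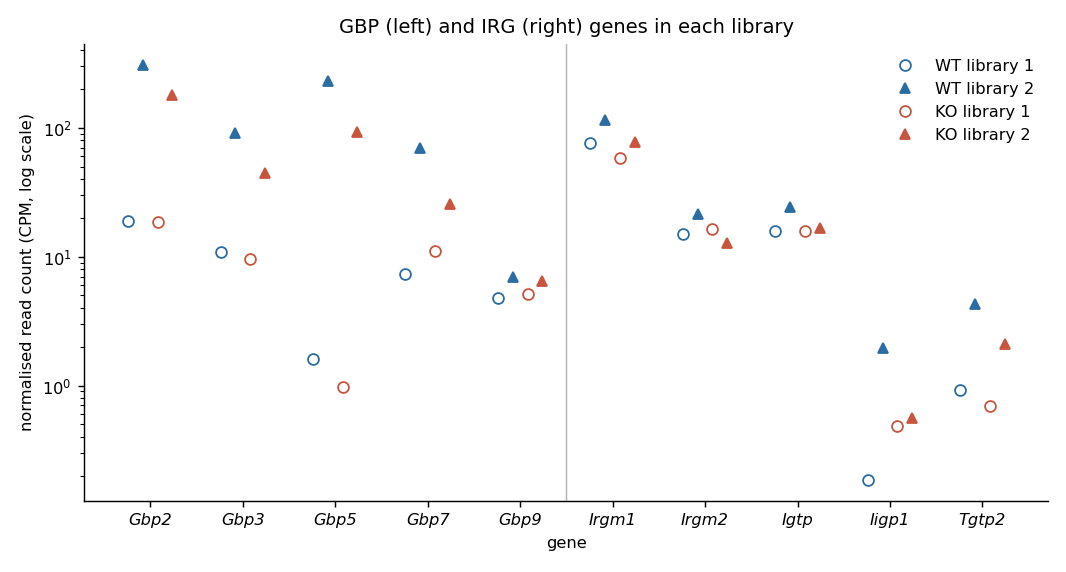
Normalised read counts of the 10 members in each library, in CPM on a log axis, with GBP genes left and IRG genes right of the grey line; circles are libraries numbered 1, triangles libraries numbered 2, blue WT and red KO. For Gbp2, Gbp3, Gbp5 and Gbp7 the triangles stand far above the circles in both genotypes, and the highest value of every gene is that of the second control library.

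Among the tested members, the 4 GBP genes of the chromosome 3 cluster had the largest folds between the control libraries. Gbp5, which encodes a prenylated GBP linked to inflammasome assembly, had 26 and 3660 counts in controls and 18 and 1826 in knockouts, or 1.60 and 230 CPM against 0.965 and 92.7 CPM. With 0.5 counts added, as in all folds between libraries given here, the level in number 2 was 141 times that in number 1 in controls and 93.5 times in knockouts, and the knockout lay below the control within either number. The mean was 116 ± 161 CPM in controls and 46.8 ± 64.9 CPM in knockouts (SD, n = 2 each), with a log2 fold change of -1.30 (SE 2.32, 95% interval -7.18 to 4.58, edgeR quasi-likelihood adjusted p 0.973). Without the second control library the value was 4.83. With the replicate number as a block it was -1.15 (edgeR quasi-likelihood adjusted p 0.00102), and Gbp5 was called in that fit.

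Gbp2, also a prenylated GBP and the most abundant member in the libraries numbered 2, had 19.0 and 308 CPM in controls and 18.7 and 179 CPM in knockouts. The libraries numbered 1 were nearly level between the genotypes, with a log2 ratio of knockout to control of -0.02, and those numbered 2 were not, with -0.78. The means of 164 ± 205 CPM in controls and 98.9 ± 113 CPM in knockouts (SD, n = 2 each) gave a log2 fold change of -0.73 (SE 1.46, 95% interval -4.42 to 2.97, edgeR quasi-likelihood adjusted p 0.978). It turned to 2.35 without the second control library and to 0.13 without the first knockout library.

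Gbp3 followed the same order of libraries with 10.8 and 90.9 CPM in controls and 9.60 and 44.6 CPM in knockouts. Its level in number 2 was 8.36 times that in number 1 in controls and 4.63 times in knockouts, and the knockout was below the control within both numbers (-0.18 and -1.03 on the log2 scale). The log2 fold change was -0.91 (SE 1.12, 95% interval -3.75 to 1.93, edgeR quasi-likelihood adjusted p 0.964), and 1.29 without the second control library.

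Gbp7 did not keep this order. It had 7.39 and 69.9 CPM in controls and 11.1 and 25.6 CPM in knockouts, so that the knockout was above the control in number 1, with a log2 ratio of 0.58, and below it in number 2, with -1.45. The level in number 2 was 9.42 times that in number 1 in controls and 2.31 times in knockouts. Its log2 fold change of -1.08 (SE 1.02, 95% interval -3.66 to 1.51, edgeR quasi-likelihood adjusted p 0.957) became 1.27 without the second control library. Of the 50-base words of the Gbp7 transcript, 12.8% also occurred in another gene, 10.6% in Gm43802.

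Gbp9, the member outside the chromosome 3 cluster, was low and flat. It had 77 and 110 counts in controls and 96 and 127 in knockouts, or 5.82 ± 1.52 CPM in controls and 5.80 ± 0.919 CPM in knockouts (SD, n = 2 each). All 4 libraries lay within 4.74 to 6.90 CPM. Its log2 fold change was -0.0053 with a 95% interval from -0.86 to 0.85 (edgeR quasi-likelihood adjusted p 0.998), so a change within that interval was not detectable with these libraries.

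The regulatory IRG genes varied much less between library numbers than the chromosome 3 GBP genes. Irgm1, which encodes a GTPase of lysosomes, mitochondria and the Golgi, had 76.6 and 115 CPM in controls and 58.5 and 76.9 CPM in knockouts. The second knockout library stood just above the first control library, so the groups overlapped. The mean was 95.6 ± 26.7 CPM in controls and 67.7 ± 13.0 CPM in knockouts (SD, n = 2 each), and the knockout lay below the control within both numbers, by -0.39 and -0.57 on the log2 scale. The log2 fold change was -0.50 (SE 0.30, 95% interval -1.27 to 0.28, edgeR quasi-likelihood adjusted p 0.902). With DESeq2 size factors or a gene length correction both knockout libraries lay below both control libraries for Irgm1, and the sign was negative in all fits that were run. Its size depended on the libraries, with -0.21 without the second control library, -0.31 without the first knockout library and -0.76 without the first control library.

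Irgm2 had 15.03 and 21.5 CPM in controls and 16.5 and 12.7 CPM in knockouts. The knockout was above the control in number 1 (0.14 on the log2 scale) and below it in number 2 (-0.75), and the second knockout library was the lowest of the 4. Igtp, whose protein is also known as Irgm3, had 15.8 and 24.4 CPM in controls and 15.8 and 16.8 CPM in knockouts, so that 3 libraries were level and the second control library stood above them. Their log2 fold changes were -0.32 (SE 0.30, edgeR quasi-likelihood adjusted p 0.956) and -0.30 (SE 0.29, adjusted p 0.957). Without the second control library they were -0.073 for Irgm2 and 0.012 for Igtp, and without the first control library -0.56 and -0.58. Irgm2 was also at -0.52 without the first knockout library and at -0.15 without the second knockout library.

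The 2 effector IRG genes had few counts. Tgtp2, of the family of T cell-specific GTPases, had 15 and 69 counts in controls and 13 and 41 in knockouts, or 0.924 and 4.33 CPM against 0.697 and 2.08 CPM. As in the chromosome 3 GBP genes, both libraries numbered 2 stood above both numbered 1, by 4.56 times in controls and 2.91 times in knockouts. The log2 fold change was -0.91 (SE 0.88, 95% interval -3.14 to 1.32, edgeR quasi-likelihood adjusted p 0.957), and 0.55 without the second control library. Iigp1 (chromosome 18, 60376029 to 60392627), a well studied effector IRG, had 3 and 31 counts in controls and 9 and 11 in knockouts. It did not pass the filter, and 1 library, the second control library, held more counts than the other 3 together. Tested without a filter, its log2 fold change was -1.02 (edgeR quasi-likelihood adjusted p 0.870), and it was -1.89 without the first control library (adjusted p 0.728).

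Next, the knockout was set against the control within each library number, where a single library stands for a genotype and no error can be given. In number 2 all 10 members were lower in knockouts. Their control level was 1.07 times that of the knockout for Gbp9, 1.46 to 1.72 times for Igtp, Irgm1, Irgm2 and Gbp2, 2.04 to 2.73 times for Gbp3, Tgtp2, Gbp5 and Gbp7, and 3.38 times for Iigp1. Of the 9 tested members, 4 were more than 2-fold lower in knockouts in number 2, against 2.59% of all tested genes. In number 1 the members were divided, with 5 of 9 lower and 4 of 9 higher in knockouts, and Igtp among the latter at only 0.0041 on the log2 scale. The median log2 ratio of the 9 members was -0.02 in number 1 and -0.78 in number 2, where that of all tested genes was 0.11 and -0.0013. The knockout was below the control in both numbers for 5 of 9 members (Gbp2, Gbp3, Gbp5, Irgm1 and Tgtp2), against 29.0% of all tested genes. Whether the ratio differed between the numbers could not be tested with 1 library for each combination.

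**Figure D3:**
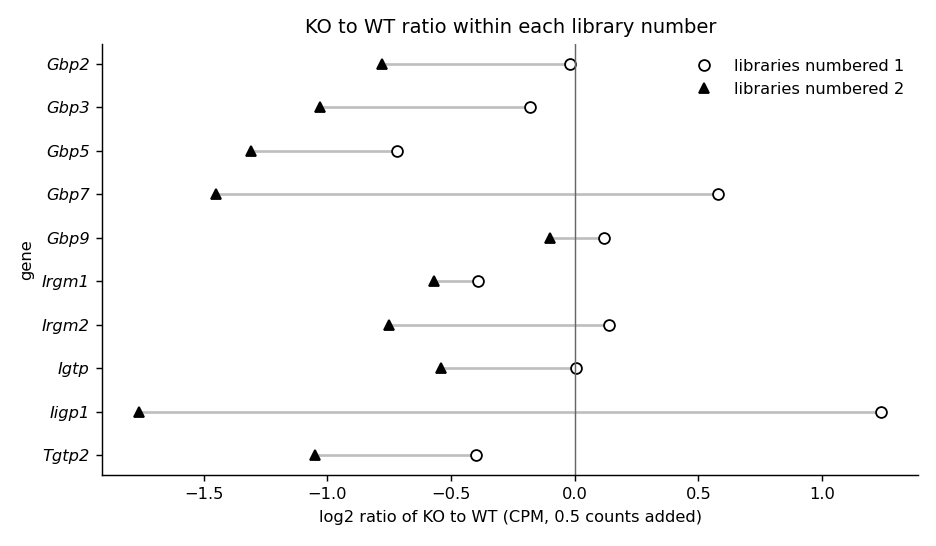
Log2 ratio of KO (knockout) to WT (control) for each member, with 0.5 counts added, within the libraries numbered 1 (open circles) and within those numbered 2 (filled triangles), joined by a grey line. All 10 triangles lie below 0, from -0.10 to -1.76, and the circles lie on both sides of it, from -0.72 to 1.24.

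For Gbp2, Gbp3, Gbp5, Tgtp2 and Gbp9 the contrast between library numbers within either genotype was larger than that between genotypes within either number. Both contrasts were small for Gbp9. Gbp2, Gbp3, Gbp5, Gbp7 and Tgtp2 were more than 2-fold higher in number 2 in both genotypes, 5 of 9 members against 4.36% of all tested genes. The remaining tested members differed little: from number 1 to number 2, the ratio of Irgm1 was 1.49-fold in controls and 1.31-fold in knockouts, Igtp 1.55-fold and 1.06-fold, Irgm2 1.43-fold and 0.772-fold, and Gbp9 1.45-fold and 1.25-fold. The make-up of the family differed with it. GBP genes held 28.6% and 33.1% of the counts of all 10 members in the libraries numbered 1 (control and knockout) and 80.9% and 76.2% in those numbered 2. The summed level of the 10 members was 152 and 138 CPM in number 1 and 872 and 457 CPM in number 2. The labels do not say what the number marks.

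**Figure D4:**
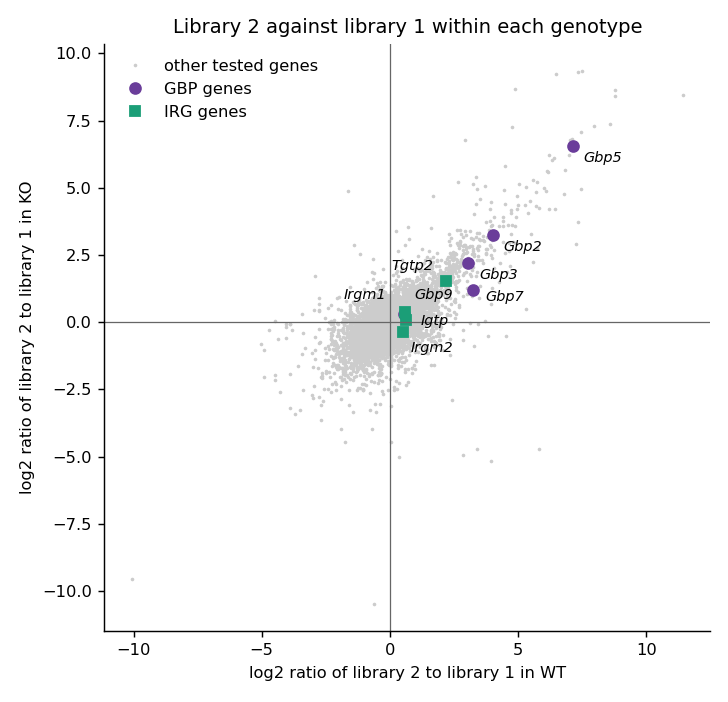
Log2 ratio of library 2 to library 1 in controls (horizontal axis) and in knockouts (vertical axis) for 12418 tested genes (grey), with GBP genes as purple circles and IRG genes as green squares. Gbp5, Gbp2, Gbp3, Gbp7 and Tgtp2 lie in the upper right above 1 on both axes, while Gbp9, Irgm1, Irgm2 and Igtp lie near the centre of the grey cloud.

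Levels were compared between genes in FPKM, which accounts for gene length. By the control mean, Gbp2 was highest (54.5 ± 68.0 FPKM), followed by Irgm1 (12.4 ± 3.36), Gbp5 (10.9 ± 15.2), Gbp3 (7.91 ± 8.78), Gbp7 (5.58 ± 6.36), Igtp (3.71 ± 1.09), Irgm2 (2.50 ± 0.604), Tgtp2 (0.780 ± 0.710), Gbp9 (0.579 ± 0.146) and Iigp1 (0.322 ± 0.375), each as FPKM with SD over 2 libraries. Only Igtp and Irgm2, and Irgm2 and Tgtp2, were neighbours whose control libraries did not overlap. The order was a matter of library number. Irgm1 ranked first in both libraries numbered 1, and Gbp2 in both numbered 2. Gbp5 ranked 9 and 10 of 10 in number 1 of control and knockout and 2 and 3 in number 2.

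Tgtp2 could not be read on its own, since it lies beside a near-identical copy. Of its 50-base words, 89.8% also occurred in Tgtp1 (chromosome 11, 48985327 to 48994172), so that the counting could assign reads to either gene. Tgtp1 had 13 and 76 counts in controls and 2 and 4 in knockouts. Both knockout libraries lay below both control libraries, and the log2 ratio was -2.63 in number 1 and -4.39 in number 2. In edgeR's quasi-likelihood test its log2 fold change was -4.10 (SE 1.07) with an adjusted p of 0.408, and without the second control library it was -2.34. Its adjusted p was 0.0264 in the DESeq2 Wald test and 0.00675 in the edgeR exact test. Tgtp1 took 46.4% and 52.4% of the counts of the pair in controls and 13.3% and 8.89% in knockouts. The pair together had 28 and 145 counts in controls and 15 and 45 in knockouts, and its log2 fold change was -1.80 (edgeR quasi-likelihood adjusted p 0.848). Tgtp2 alone therefore differed less between the genotypes than the sum of the pair, -0.91 against -1.80.

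A second pair of related genes stood beside it with the opposite direction. 9930111J21Rik2 (chromosome 11, 49015874 to 49051242), an IRG-family gene 6.42 Mb from G3bp1, had 8 and 6 counts in controls and 700 and 199 in knockouts. Its log2 fold change was 5.75 (SE 0.82, edgeR quasi-likelihood adjusted p 0.216), the log2 ratio was 6.16 in number 1 and 4.63 in number 2, and its adjusted p was 1.94e-10 in the DESeq2 Wald test and 7.87e-10 in the exact test. Its copy 9930111J21Rik1, in which 49.0% of the 50-base words of 9930111J21Rik2 occurred, had 183 and 96 counts in controls and 262 and 96 in knockouts (log2 fold change 0.13). 9930111J21Rik2 held 4.19% and 5.88% of the counts of this pair in controls and 72.8% and 67.5% in knockouts. Gm5431, from the same cluster, had 129 and 112 counts in controls and 95 and 40 in knockouts, a log2 fold change of -1.07 (SE 0.49, edgeR quasi-likelihood adjusted p 0.841). Whether reads were assigned to one copy or the other in the same way in both genotypes was not tested.

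**Figure D5:**
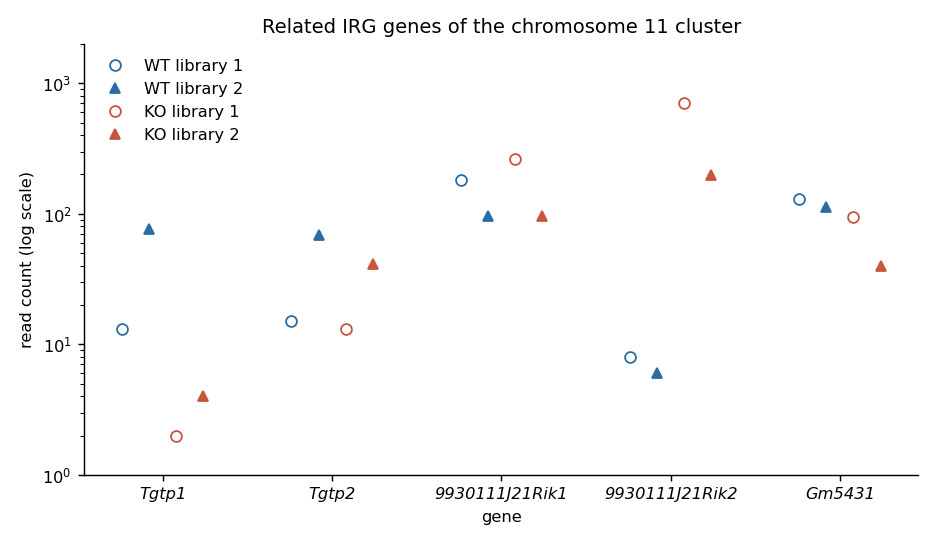
Read counts on a log axis of 5 related IRG genes of chromosome 11 in each library; circles are libraries numbered 1, triangles those numbered 2, blue WT and red KO. Tgtp1 is lower in both knockout libraries (2 and 4 counts) than in both control libraries (13 and 76), 9930111J21Rik2 is higher (700 and 199 against 8 and 6), and the copies Tgtp2 and 9930111J21Rik1 overlap between genotypes.

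The other genes of both families were mostly low. Of 16 gene models of the families outside the 10 members, 8 were tested and 0 were called by the quasi-likelihood test. The 2 models named Gbp6 had 19 and 283 counts in controls and 10 and 204 in knockouts, and 15 and 90 against 10 and 56, and thus stood higher in number 2 like the chromosome 3 GBP genes. Gbp4 had 2 and 17 counts in controls and 4 and 30 in knockouts, and Gbp8 between 9 and 12 counts in every library. Gbp2b, Gbp10, Gbp11, Gm4951, Gm12185, Gm12187, F830016B08Rik and Irgc1 had at most 12 counts in any library and were not tested. Among GTPases of other interferon-inducible families, Mx1, an antiviral GTPase, had 22 and 237 counts in controls and 11 and 77 in knockouts and showed the same order of libraries as Gbp3 and Gbp5. Its log2 fold change was -1.84 (SE 1.29, edgeR quasi-likelihood adjusted p 0.920), and of the 4 tested genes of that list 3 lay below 0 and 0 were called.

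The genes upstream of the GTPases were read next. The ligands were not detected: Ifng had 0 counts in all 4 libraries, a limit of 0.152 to 0.188 CPM, and of 8 interferon genes only Ifnb1 had a count, a single one in the second control library. The receptors Ifngr1 (2353 and 2338 counts in controls, 2691 and 3151 in knockouts) and Ifngr2 (4655 and 5592 against 4903 and 6413) were well expressed and had log2 fold changes of 0.061 and -0.12. Among the 7 receptor and kinase genes, 2 lay above 0 and 5 below, with a median of -0.037.

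The transcription factors did not move alike. Irf1, which binds ISRE sites, had 379 and 3559 counts in controls and 376 and 2472 in knockouts, 9.55 and 6.22 times higher in number 2 than in number 1. This is the order of libraries seen in Gbp2, and its log2 fold change was -0.76 (SE 1.22, edgeR quasi-likelihood adjusted p 0.971). Irf8, a factor of the macrophage lineage, went the other way between numbers, with 1466 and 922 counts in controls and 2210 and 1209 in knockouts. Of the 8 factors tested, 6 lay below 0, and Irf7 (239 and 286 counts in controls, 124 and 106 in knockouts) was the single one with an unadjusted p under 0.05. Of the 6 signalling inhibitors, 4 lay below 0. Usp18, an inhibitor of type I interferon signalling, was the single one with an unadjusted p under 0.05, with 166 and 174 counts in controls and 61 and 46 in knockouts (log2 fold change -1.91, SE 0.32, edgeR quasi-likelihood adjusted p 0.250). Socs3, an inhibitor of JAK kinases, had 95 and 2513 counts in controls and 143 and 1492 in knockouts, again with number 2 far above number 1. Of the 6 inhibitors, 2 were more than 2-fold higher in number 2 in both genotypes, against 4.36% of all tested genes.

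Other interferon targets gave a context for the members. Of 9 tested targets of interferon gamma, 8 lay below 0 with a median log2 fold change of -0.64, where that of the GTPase members was -0.73. Psmb8, an immunoproteasome subunit, had 2754 and 2799 counts in controls and 1458 and 2181 in knockouts, a log2 fold change of -0.87 (SE 0.27, edgeR quasi-likelihood adjusted p 0.544) with little difference between numbers in controls. Cd40, a costimulatory receptor, had 32 and 2038 counts in controls and 44 and 1511 in knockouts and varied with the number. Of the 15 tested targets of type I interferon, 15 lay below 0 with a median of -1.21, and 6 were lower at an unadjusted p under 0.05, against 1.99% of all tested genes. Both knockout libraries lay below both control libraries for 9 of these 15, against 16.9% of all tested genes and 0 of 9 GTPase members. Bst2, the type I target with the highest mean CPM, had 2111 and 1895 counts in controls and 1365 and 1737 in knockouts. Its log2 fold change was -0.62 (SE 0.23, edgeR quasi-likelihood adjusted p 0.701). Oas1a, which encodes a sensor of double-stranded RNA, had 1097 and 1040 counts in controls and 556 and 644 in knockouts, with a log2 fold change of -1.09 (SE 0.22, edgeR quasi-likelihood adjusted p 0.289). The lists were written with earlier results of these data known, and no list was tested as a set.

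The machinery that serves the GTPases was also examined. Of 13 tested genes that mark vacuoles for GTPase attack, such as the autophagy conjugation genes, 4 lay above 0 and 9 below with a median of -0.14, and 0 were called. Of the 5 enzymes that prenylate GBPs and process the prenylated end, 3 lay above and 2 below 0 with a median of 0.029. Of 8 inflammasome and pyroptosis genes, 7 lay below 0 with a median of -0.49. Casp4, which encodes caspase-11, had 436 and 2614 counts in controls and 301 and 2471 in knockouts. Il1b, the cytokine released after inflammasome activation, had 2 and 6783 counts in controls and 3 and 1294 in knockouts. Both were higher in the libraries numbered 2. Of the 8 genes, 3 were more than 2-fold higher in number 2 in both genotypes. Pycard, the inflammasome adaptor, was not, with 2488 and 1767 counts in controls and 1712 and 2008 in knockouts, and nor was Casp1, with 2586 and 3556 against 1689 and 3451.

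Finally, genes were ranked by how closely their profile over the 4 libraries followed the mean profile of the 9 tested members, each as log2 CPM with its own mean over the 4 libraries subtracted. The mean profile of the members was -0.98 and 1.45 in controls and -1.08 and 0.61 in knockouts. Of 8084 genes compared, the nearest were Lcp2, a signalling adaptor, with a root mean square difference of 0.137 on the log2 scale, Mmp13, a collagenase (0.139), Lmo4 (0.168), Tnip1, an inhibitor of NF-kB signalling (0.176), Kcnn4 (0.177) and Cmklr1, the chemerin receptor (0.183). Lcp2 had 935 and 4832 counts in controls and 1059 and 4250 in knockouts. The likeness is over 4 libraries and rests mainly on the step between library numbers.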

How the data were processed

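Total RNA of 4 macrophage libraries was sequenced, 2 labelled WT and 2 labelled KO. The authors extracted RNA with Trizol, sequenced on an Illumina NovaSeq and deposited whole-number read counts per gene, not normalised, with an FPKM value beside each. Per the submitters' processing notes HISAT2 2.0.4 and StringTie 1.3.3b were used, and the notes list mm39. However, 27763 of the 34344 gene identifiers shared with GENCODE M21 had the same position on GRCm38, and coordinates here follow that build. The positions of Irgm2 and Iigp1 differed from GENCODE M21. The deposited FPKM values carried only library total and gene length (implied lengths differed between libraries by at most 0.0040%). Strand use in counting is not given in the sources used here, and 59 symbols named more than 1 gene. Mean CPM and FPKM are over 2 libraries.

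Differential expression was computed with edgeR 4.0.16 (R 4.3.3). The filterByExpr step, with a minimum count of 10 and a minimum total of 15, passed 12418 of the 17991 genes that had any count, and TMM factors ran from 0.942 to 1.11. The design held genotype alone. The two-sided glmQLFTest was adjusted by Benjamini-Hochberg over all tested genes, and calls needed an adjusted p below 0.05 together with more than 1 on the log2 fold scale. Ratios and folds between single libraries had 0.5 counts added. Scripts were tested on simulated data. Library totals ran from 16724241 to 19747909. As reads had no molecular identifiers, limits for counts of 0 reflect counting error only. All samples were used.

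The members and gene lists were chosen with earlier results of these data known. Beside the members, G3bp1, Ifng, Ifngr1, Ifngr2, Irf1 and Irf8 were to be named always (1 further gene is not reported here), all other family genes with a count, up to 4 genes of each list with the highest mean CPM, and the 6 genes nearest in profile among those with a mean CPM of at least 10. Irf7 and Usp18 were named after their values were seen. Words of 50 bases came from GENCODE M21 transcripts and promoters from RefSeq. Protein sequences were not analysed here.

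Alternatives were DESeq2 size factors, no filter, mean CPM of at least 1, a replicate block, each library left out, the edgeR exact test, the Wald test of DESeq2 1.42.0, limma-trend 3.58.1 on log2(FPKM + 1) where at least 2 libraries reached 0.1 FPKM, calls without a fold limit, a loess correction for gene length (span 0.5) with and without the block, and summed counts of Tgtp1 and Tgtp2. The sum with the block was added after seeing the data.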

Additional observations from a re-analysis of the deposited data

How the results depend on the processing

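The number of genes called was 0 in the main test and moved with the test. It was 174 in the edgeR exact test and 181 in the DESeq2 Wald test, with 0 members among them in either, and 0 to 1 when a library was left out. The labels do not say what the replicate number marks, and 2 pairs are too few to establish a pairing; across genes, the deviations from the genotype mean of 2 libraries with the same number correlated at 0.710. Under the replicate block 494 genes were called higher and 170 lower, 664 in all, 1 of them a member, Gbp5 (-1.15, edgeR adjusted p 0.00102). Outside the members, Tgtp1 (-4.04, edgeR adjusted p 6.78e-09) and 9930111J21Rik2 (5.66, edgeR adjusted p 4.48e-48) were also called in that fit. With the replicate block and gene length correction 625 genes were called, again with 1 member, Gbp5 (-1.27, adjusted p 9.65e-07). With the counts of Tgtp1 and Tgtp2 summed and the replicate block, chosen after seeing the data, 664 genes and 2 members were called, Gbp5 (-1.15) and the sum (-1.67, adjusted p 0.000164). The adjusted p of members ran from 0.466 to 1 in the fits without a block.

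Leaving out a library moved the median of the members from -1.63 to 0.55. Single values ran from -3.13 to 2.35 for Gbp2, -2.41 to 1.29 for Gbp3, -6.90 to 4.83 for Gbp5, -1.93 to 1.27 for Gbp7, -0.25 to 0.26 for Gbp9, -0.76 to -0.21 for Irgm1, -0.56 to -0.073 for Irgm2, -0.58 to 0.012 for Igtp and -1.91 to 0.55 for Tgtp2. Each upper end came without the second WT library. Leaving out any library also leaves genotype and library number unbalanced, so these ranges mix the 2. Gbp9 also turned to 0.0062 with the replicate block, to 0.0061 with the block and summed Tgtp counts and to 0.057 in limma on log2(FPKM + 1). The number of members with both KO libraries below both WT libraries was 1 (Irgm1) with DESeq2 size factors and 1 with the gene length correction. Of 135 values of single members under alternatives, 119 kept their direction and side of the threshold, 12 reversed and 4 were called where the main test did not call them. At levels near 1 CPM, as for Tgtp2 and Iigp1, counting error limits any comparison.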
